A study of Mus musculus with 23 samples.

Results

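Chemokines are small secreted proteins that guide cells along concentration gradients through G protein-coupled receptors. They were followed here in the hypothalamus of diabetic mice given celastrol. All genes were taken whose symbol follows the names of the chemokine ligands (Ccl, Cxcl, Cx3cl1, Xcl1), of their receptors (Ccr, Cxcr, Cx3cr1, Xcr1) or of the atypical receptors (Ackr), and that have a probe set naming no other gene. This gave 56 of 18702 measured genes. They comprised 34 ligands (19 of the CC, 13 of the CXC, 1 of the CX3C and 1 of the XC class), 18 receptors and 4 atypical receptors. Ccl21a to Ccl21d, Ccl27a and Ccl27b share their probe sets with other genes and were not analysed here.

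Total RNA of the hypothalamus was measured on 23 whole-transcript arrays, 1 per mouse sample, in 6 groups. Every group was of male db/db mice, which lack the long form of the leptin receptor, aged 8 weeks and kept on normal chow for 2 weeks. Celastrol, a triterpene from thunder god vine studied as a leptin sensitiser, or its vehicle DMSO (25 µl per day) was injected into the peritoneum, and groups were taken at 6 h, 1 day and 4 days. There were 4 arrays in each group except celastrol at 6 h, which had 3. The celastrol labels state 250 µg/kg for 6 h, and no dose was read from them for 1 day and 4 days. No lean mice were included, so every value is for the db/db background.

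In brain, Cx3cl1 of neurons signals to Cx3cr1 of microglia, and Cxcl12 signals through Cxcr4 and is cleared by the scavenger Ackr3. Ccl2 and Ccr2 are known for the recruitment of monocytes, and the Cxcl1 group for that of neutrophils through Cxcr2. Atypical receptors bind chemokines without G protein signalling. Many inflammatory chemokine genes are induced through NF-kappaB, whose binding site is the kappaB decamer.

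Promoter sequence from RefSeq (GRCm38.p6) was matched to 42 of the 56 genes, in 44 windows. Over the 250 bases before the start, on both strands, a kappaB decamer was found in 11 of 44 windows (25.0%), against 7.25% of all 32851 windows of that length. The letters TATAAA were found in 14 (31.8%, against 12.4%), the interferon response core GAAANNGAAA in 3 (6.82%, against 2.98%) and the AP-1 site TGACTCA in 3 (6.82%, against 4.46%). These are descriptions of letters and not of bound sites. The 150 bases that end just before the start were read out for the genes whose differences were among the largest (Cxcl12, Ccr2 and Xcr1) and for the neighbouring neutrophil ligands Cxcl1, Cxcl2 and Cxcl3. Each is printed 5′ to 3′ on its gene's strand, with the matched motifs in capitals.
Cxcl12 (chr6:117168385-117168534, plus strand): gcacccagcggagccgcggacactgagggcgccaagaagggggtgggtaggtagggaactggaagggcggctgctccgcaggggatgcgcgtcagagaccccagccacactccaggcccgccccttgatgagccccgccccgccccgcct
Ccr2 (chr9:124102033-124102182, plus strand): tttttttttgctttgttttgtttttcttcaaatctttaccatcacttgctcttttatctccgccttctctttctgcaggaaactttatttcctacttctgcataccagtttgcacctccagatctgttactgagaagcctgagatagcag
Xcr1 (chr9:123862030-123862179, minus strand): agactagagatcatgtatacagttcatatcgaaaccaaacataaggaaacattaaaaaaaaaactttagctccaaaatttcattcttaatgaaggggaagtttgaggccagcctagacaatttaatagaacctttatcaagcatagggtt
Cxcl1 (chr5:90891095-90891244, plus strand): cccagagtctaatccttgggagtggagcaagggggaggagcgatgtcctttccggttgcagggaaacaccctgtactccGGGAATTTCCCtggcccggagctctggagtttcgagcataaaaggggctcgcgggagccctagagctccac
Cxcl2 (chr5:90903749-90903898, plus strand): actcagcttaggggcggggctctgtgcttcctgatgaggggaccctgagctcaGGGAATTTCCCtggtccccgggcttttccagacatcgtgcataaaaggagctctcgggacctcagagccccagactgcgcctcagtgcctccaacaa
Cxcl3 (chr5:90785951-90786100, plus strand): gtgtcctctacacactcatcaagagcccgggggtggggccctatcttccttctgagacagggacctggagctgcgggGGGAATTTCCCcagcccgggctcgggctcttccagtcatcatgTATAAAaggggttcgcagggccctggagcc

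Cxcl1, Cxcl2 and Cxcl3 carried the same letters, GGGAATTTCCC, which match the decamer on both strands, so that its matches overlap. The match began 71 bases before the start of Cxcl1, 97 before that of Cxcl2 and 73 before that of Cxcl3, and Cxcl3 also had TATAAA 30 bases before its start. No capital stands in the windows of Cxcl12, Ccr2 and Xcr1, which says only that these letters are not in the bases shown; Xcr1 has TATAAA on its other strand 160 bases before the start.

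Most of the family was dim on these arrays. By mean log2 value over all arrays, 44 of the 56 genes lay in the lowest tercile of all genes (below 7.63), and 12 lay above it: Ackr1, Ccl17, Ccl19, Ccl25, Ccl28, Ccl5, Ccr10, Ccr7, Cx3cl1, Cx3cr1, Cxcl12 and Cxcl14. Values are log2 per probe set, so levels of different genes are not set against each other, and in whole tissue fewer cells of a type and less RNA per cell cannot be told apart. Hypothalamic neuron markers (9 of 9 measured) had group means from 11.55 to 11.65. The highest Prl value, 11.28, and all values above 9 were in 4 vehicle arrays (replicates 2 and 4 at 6 h, replicate 1 at 1 day, replicate 2 at 4 days); Prl encodes a pituitary hormone. No celastrol array exceeded 9. Without those 4 arrays 0 family genes passed in any celastrol comparison.

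At 6 h, chemokine and receptor genes were mostly higher with celastrol, but no single gene passed the test. Celastrol was higher for 52 of 56 genes, with a median difference of 0.12 on the log2 scale, against 52.8% of all genes and a median of 0.0072. The genes share the same arrays, so the count is not one of independent cases. The mean of the 56 genes was 7.07, 7.11, 7.09 and 7.15 in vehicle and 7.26, 7.29 and 7.18 in celastrol arrays. By role, 16 of 19 CC ligands, 13 of 13 CXC ligands, 17 of 18 receptors and 4 of 4 atypical receptors were higher, as were Cx3cl1 and Xcl1. The exceptions were the ligands Ccl7, Ccl12 and Ccl25 and the receptor Ccr6. By limma with p-values adjusted over all genes, 0 of 56 genes passed 0.05 (0% of all genes), and the smallest adjusted p was 0.156. At an unadjusted p under 0.05, 19 genes were higher (33.9%, against 8.56% of all genes) and 0 lower (against 6.22%). In 13 genes all celastrol arrays exceeded all vehicle arrays (against 5.97% of all genes), and in 0 they lay below (against 4.29%).

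Dim genes as a whole were higher with celastrol at this time. Of all genes in the lowest tercile, 76.8% were higher with celastrol at 6 h, with a median difference of 0.082. The 44 family genes of that tercile were higher in 41 cases, with a median of 0.145. At an unadjusted p under 0.05, 17 of the 44 were higher (38.6%), against 16.9% of all genes of that tercile. The 12 brighter family genes were higher in 11 cases, with a median of 0.075, whereas 40.8% of all genes above the lowest tercile were higher, with a median of -0.021. The spread of values over genes also differed in mean between the groups. Its mean SD was 1.93 in vehicle and 1.89 in celastrol arrays at 6 h, 1.95 and 1.92 at 1 day, and 1.89 and 1.91 at 4 days. With each array's SD in the model, the median difference of the family was 0.041 at 6 h, 0.0031 at 1 day and 0.024 at 4 days. That SD is computed from the same values and was lower where dim genes were higher. At 6 h the median of the lowest tercile averaged 6.52 in vehicle and 6.62 in celastrol arrays. The covariate can therefore take up part of a celastrol difference itself.

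**Figure D1:**
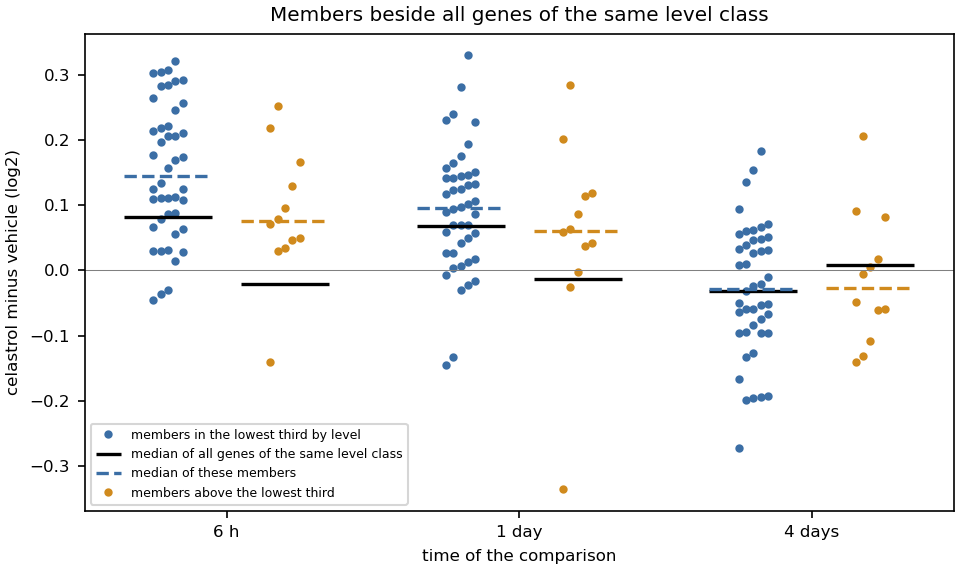
Differences between celastrol and vehicle (log2, vertical axis) of the 56 genes at each time, 1 point a gene, for the 44 genes in the lowest tercile of all genes by level (blue) and the 12 above it (orange). Dashed lines are medians of these genes and black lines medians of all genes of the same level class; at 6 h the dashed lines stand at 0.145 and 0.075 and the black ones at 0.082 and -0.021.

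Ccr2, the receptor that draws monocytes out of the blood, had the smallest p at 6 h. It was among the dim genes, with a mean of 5.36 over all arrays, where the lowest tercile ends at 7.63. Its log2 values were 5.18, 5.07, 5.08 and 5.28 in vehicle and 5.49, 5.44 and 5.49 in celastrol arrays. The groups did not overlap, and the difference was 0.32 ± 0.07 (SE), a fold of 1.25, with an adjusted p of 0.156 by limma. The vehicle group at 6 h was itself low. Vehicle arrays were 5.35, 5.38, 5.41 and 5.29 at 1 day and 5.38, 5.42, 5.50 and 5.28 at 4 days, so the celastrol values at 6 h lay within the range of vehicle at 4 days. Against the mean of all vehicle groups the difference at 6 h was 0.17. That control joins all times, and Ccr2 differed between vehicle times (adjusted p = 0.0398 by limma). Here and below, values against it therefore mix time with treatment. At 1 day and 4 days Ccr2 differed by 0.04 and 0.03. Its ligand Ccl2 was 6.97, 7.10, 7.13 and 7.03 in vehicle and 7.44, 7.42 and 7.19 in celastrol arrays at 6 h, again without overlap (0.29 ± 0.11, adjusted p = 0.240). Ccl2 differed by 0.09 at 1 day and -0.05 at 4 days. With the array SD in the model its differences were -0.011, -0.15 and 0.077 at the respective times, so that each direction turned.

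The XC pair, Xcl1 of lymphocytes and Xcr1 of cross-presenting dendritic cells, had higher means with celastrol at 6 h, without passing the test. Xcl1 was 6.41, 6.50, 6.54 and 6.37 in vehicle and 6.81, 6.87 and 6.60 in celastrol arrays, with no overlap (0.30 ± 0.09, adjusted p = 0.182). Xcr1 was 6.32, 6.52, 6.21 and 6.46 in vehicle and 6.81, 6.72 and 6.45 in celastrol arrays, and 1 celastrol array lay among the vehicle ones (0.28 ± 0.09, adjusted p = 0.194). The mucosal ligand Cxcl17 was 7.39, 7.61, 7.34 and 7.63 against 7.83, 7.80 and 7.78, with no overlap (0.31 ± 0.09, adjusted p = 0.182). The scavenger of CC chemokines Ackr2 was 7.32, 7.29, 7.46 and 7.52 against 7.70, 7.90 and 7.50, where the groups overlapped by 1 array (0.30 ± 0.09, adjusted p = 0.182). Cxcl15, Cxcr1, a receptor of neutrophils, and Cxcr3, the receptor for Cxcl9 and Cxcl10, were the other genes of smallest p, with differences of 0.21, 0.21 and 0.28. None passed the test. With the array SD in the model the 6 h differences were 0.11 for Xcl1, 0.08 for Xcr1, 0.092 for Ackr2 and 0.073 for Cxcr3, while Ccr2 (0.24), Cxcl17 (0.21), Cxcl15 (0.21) and Cxcr1 (0.23) moved by less than 1.5 times.

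At 1 day, the family was again mostly higher with celastrol, and Cxcl12 went the other way. Celastrol was higher for 47 of 56 genes, with a median of 0.09, against 54.1% of all genes and a median of 0.0086. The mean of the 56 genes was 7.08, 7.02, 7.05 and 7.01 in vehicle and 7.15, 7.13, 7.08 and 7.13 in celastrol arrays. Among all genes of the lowest tercile, 76.2% were higher (median 0.069), beside 38 of the 44 family genes there (median 0.096) and 9 of the 12 brighter ones. CC ligands were higher in 15 of 19 cases, CXC ligands in 11 of 13, receptors in 16 of 18 and atypical receptors in 3 of 4. By limma 0 of 56 genes passed an adjusted p of 0.05 (0.016% of all genes, which is 3 genes). At an unadjusted p under 0.05, 10 were higher (against 8.31% of all genes) and 1 lower (against 4.19%). In the lowest tercile 7 of 44 family genes were higher at that threshold (15.9%), near the 14.9% of all genes there. Groups did not overlap in 6 genes with celastrol higher (against 6.44% of all genes) and in 1 with celastrol lower (against 4.56%). The first count is 10.7% of the 56 genes. The family median was 0.001 with all vehicle groups as control, 0.0031 with the array SD in the model and 0.028 after a further quantile normalisation. Leukocyte markers were higher with celastrol in 9 of 10 cases (median 0.14), 3 of them at an unadjusted p under 0.05. Of these markers 9 lie in the lowest tercile, where 76.2% of all genes were higher, and 14.9% were at that threshold. The mean of the leukocyte markers ran from 6.26 to 6.33 in vehicle and from 6.35 to 6.48 in celastrol arrays, without overlap. Their part in the family differences was not tested.

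Cxcl12, the ligand of Cxcr4 that vessels and stromal cells make, had the smallest p of the family at 1 day. Vehicle arrays were 8.43, 8.58, 8.47 and 8.69, and celastrol arrays 8.17, 8.16, 8.25 and 8.25. Every celastrol array was below every vehicle array. The difference was -0.33 ± 0.07, a fold of 1.26, and the adjusted p by limma was 0.101, so the gene did not pass. With limma's array weights it was -0.34 with an adjusted p of 0.0121, in a range from 0.0121 to 0.816 over the alternatives. At 6 h the vehicle arrays were 8.46, 8.34, 8.32 and 8.60 and the celastrol arrays 8.35, 8.38 and 8.65, with a difference of 0.03. At 4 days they were 8.43, 8.57, 8.50 and 8.35 against 8.34, 8.36, 8.20 and 8.40, which overlap, with a difference of -0.14 ± 0.07 (adjusted p = 0.726). The test of an effect that differs between times gave an adjusted p of 0.231 for Cxcl12. Its receptor Cxcr4 differed by 0.13, 0.06 and -0.10 and its scavenger Ackr3 by 0.03, -0.0072 and 0.03 at the respective times, all within overlapping groups.

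**Figure D2:**
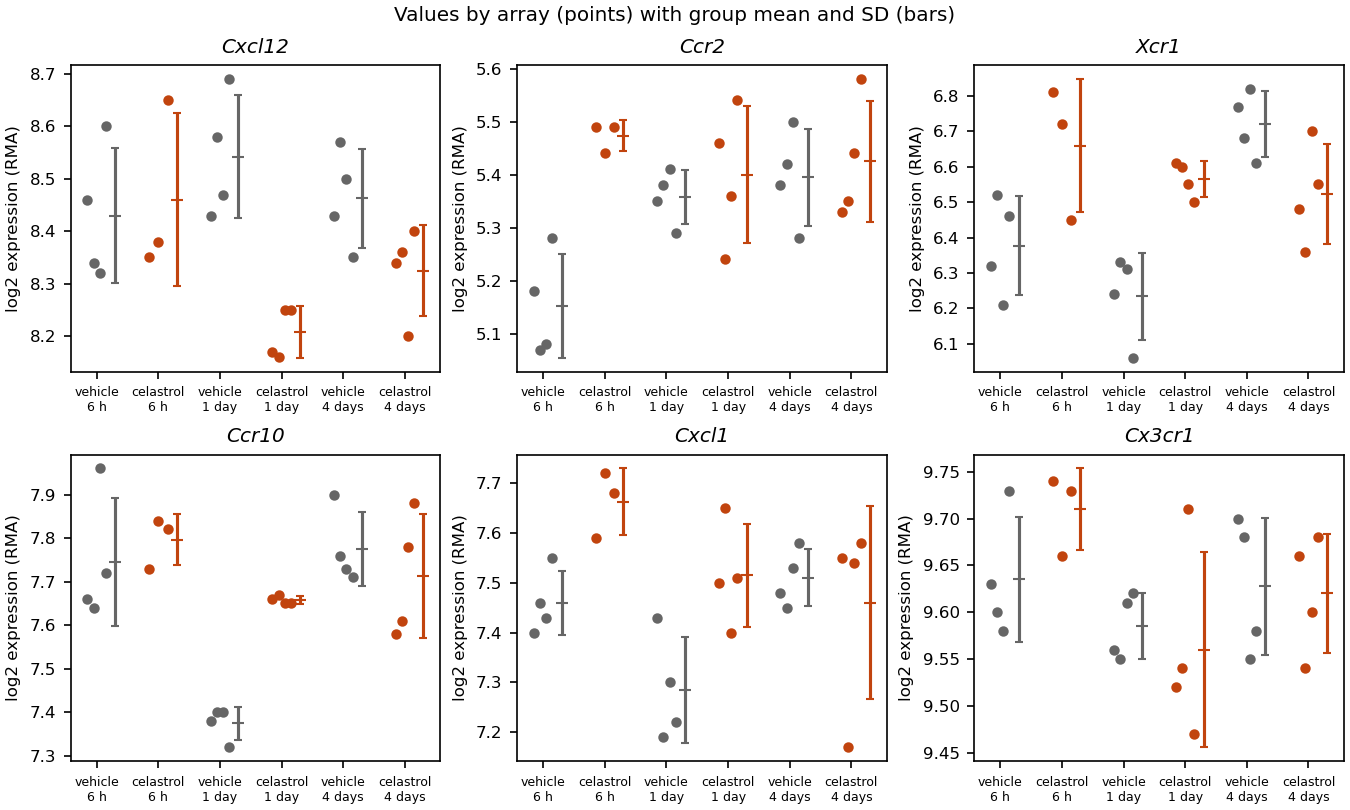
Log2 values (vertical axes, which do not start at 0) of Cxcl12, Ccr2, Xcr1, Ccr10, Cxcl1 and Cx3cr1 in each array by group, with the group mean and SD. Cxcl12 at 1 day lies between 8.16 and 8.25 with celastrol and between 8.43 and 8.69 with vehicle, and Ccr10 is lowest in the vehicle group at 1 day.

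Most endothelial markers were lower too at 1 day, as single genes without passing the adjusted test. Of 14 endothelial markers 13 were measured, none of them in the lowest tercile. With celastrol at 1 day 9 were lower (median -0.14), 6 of them at an unadjusted p under 0.05. Of the others 2 were higher at that threshold. Among all genes above the lowest tercile 43.0% were higher, and at that threshold 5.74% were lower and 5.01% higher. The mean of the endothelial markers ran from 9.31 to 9.45 in vehicle and from 9.29 to 9.33 in celastrol arrays. Over all 23 arrays, with group means removed, Cxcl12 followed this mean, with a Pearson r of 0.785 (permutation p = 0.00131, 0.00524 adjusted over the 4 relations computed) and a Spearman rho of 0.724 (permutation p = 0.00258, adjusted 0.0103). Without the 2 arrays farthest from the median of the markers r was 0.767. With the marker mean in the model the difference at 1 day was -0.20 and its adjusted p by limma 0.416. The part of vessel content in the Cxcl12 difference was not tested further. For mural and fibroblast markers (18 of 18 measured) r was 0.337 (permutation p = 0.162, adjusted 0.216) and rho 0.223 (permutation p = 0.341), and r was 0.058 without 2 arrays. Of these markers 11 were lower and 7 higher with celastrol at 1 day, 1 and 2 of them at an unadjusted p under 0.05.

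**Figure D3:**
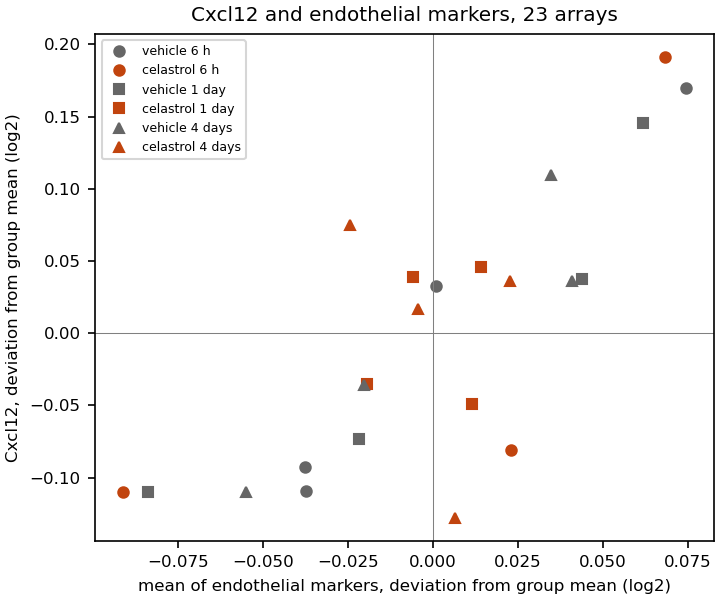
Cxcl12 (vertical axis) against the mean of 13 endothelial markers (horizontal axis), both as log2 deviations from the group mean, 1 point an array for 23 arrays. Arrays with a higher marker mean than their group have mostly higher Cxcl12, with r = 0.785.

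Ccr10, the receptor for Ccl27 and Ccl28 on skin and mucosal lymphocytes, and Xcr1 were higher with celastrol at 1 day, against vehicle groups that were low. Ccr10 was 7.38, 7.40, 7.40 and 7.32 in vehicle and 7.66, 7.67, 7.65 and 7.65 in celastrol arrays, a difference of 0.28 ± 0.07 (adjusted p = 0.137) without overlap. The vehicle arrays at 6 h (7.66, 7.64, 7.96 and 7.72) and at 4 days (7.90, 7.76, 7.73 and 7.71) ran from 7.64 to 7.96 together, beside 7.65 to 7.67 for celastrol at 1 day. Against the mean of all vehicle groups the Ccr10 difference was 0.026. Xcr1 was 6.24, 6.33, 6.31 and 6.06 in vehicle and 6.61, 6.60, 6.55 and 6.50 in celastrol arrays (0.33 ± 0.08, adjusted p = 0.156), and 0.12 against all vehicle groups. Ccr10 and Xcr1 differed between vehicle times (adjusted p = 0.0028 and 0.0059 by limma), so values against all vehicle groups mix time with treatment. With array weights Ccr10 and Xcr1 passed (adjusted p = 0.00955 and 0.0262, in ranges up to 0.949 and 0.975 over the alternatives).

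Among the neutrophil ligands, Cxcl1 had higher means at 6 h and at 1 day. It was 7.40, 7.46, 7.43 and 7.55 against 7.59, 7.72 and 7.68 at 6 h, without overlap (0.21 ± 0.08, adjusted p = 0.263). At 1 day it was 7.43, 7.19, 7.30 and 7.22 against 7.50, 7.65, 7.40 and 7.51, and 1 celastrol array lay below 1 vehicle array (0.23 ± 0.08, adjusted p = 0.240). Its difference at 4 days was -0.05. The neighbouring genes Cxcl5, Cxcl3, Cxcl15, Cxcl1 and Cxcl2 were higher in 5 of 5 cases at 6 h (median 0.17) and at 1 day (median 0.14), and in 2 of 5 at 4 days (median -0.05). The neighbouring receptors Ccr9, Cxcr6, Xcr1, Ccr1, Ccr1l1, Ccr3 and Ccr2 were higher in 7 of 7 cases at 6 h (median 0.12), 6 of 7 at 1 day and 3 of 7 at 4 days. These counts lay near those of the whole family, 52, 47 and 24 of 56 at the respective times. All genes of both clusters lie in the lowest tercile, where 76.8%, 76.2% and 37.1% of all genes were higher. The macrophage ligand Ccl22 was higher by 0.25 at 6 h and 0.24 at 1 day, without overlap at either time. Ccl24, an eosinophil attractant, Cxcr5 of B cells and the lymph node homing receptor Ccr7 differed by 0.28, 0.23 and 0.20 at 1 day. None passed the adjusted threshold. With the array SD in the model the differences at 1 day were 0.03 for Ccl24, 0.0072 for Ccr7 and 0.11 for Cxcl1, and that of Cxcl1 at 6 h was 0.058. With all vehicle groups as control they were 0.083 for Ccl24, 0.065 for Ccr7 and 0.094 for Cxcl1 at 1 day.

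At 4 days, fewer family genes were higher with celastrol than lower. Celastrol was higher for 24 and lower for 32 of 56 genes, with a median of -0.03, against 49.7% of all genes higher. The mean of the 56 genes was 7.21, 7.22, 7.22 and 7.18 in vehicle and 7.13, 7.08, 7.27 and 7.24 in celastrol arrays. In the lowest tercile 37.1% of all genes were higher, with a median of -0.032. The direction of the family median turned with all vehicle groups as control (0.059), with the array SD in the model (0.024) and without replicate 2 of celastrol at 4 days (0.0054). Mural and fibroblast markers were lower with celastrol in 16 of 18 cases (median -0.17), 7 of them at an unadjusted p under 0.05. All but 1 lie above the lowest tercile, where 56.0% of all genes were higher, and 2.85% were lower at that threshold. The mean of these markers ran from 8.62 to 9.12 in vehicle and from 8.62 to 8.79 in celastrol arrays. Leukocyte markers were lower in 6 of 10 cases (median -0.07), 3 of them at that threshold, with means from 6.49 to 6.59 and from 6.31 to 6.54. Of the leukocyte markers 9 lie in the lowest tercile, where 8.0% of all genes were lower at that threshold. The part of either marker list in the family differences was not tested. By limma 0 of 56 genes passed (0% of all genes). At an unadjusted p under 0.05, 0 were higher (against 2.73% of all genes) and 6 lower (against 4.57%): Cxcl15, Ccr8, Ccl4, Ccl1, Xcr1 and Ccr3. Groups were apart in 0 genes with celastrol higher (against 1.87%) and in 1, Cxcl15, with celastrol lower (against 1.63%). Cxcl15, a lung chemokine, was 5.30, 5.32, 5.47 and 5.44 in vehicle and 5.20, 5.27, 5.09 and 5.21 in celastrol arrays (-0.19 ± 0.06, adjusted p = 0.441). Of the vehicle groups that at 4 days was its highest. With all vehicle groups as control the Cxcl15 difference was -0.019, beside -0.0044 for Ccl1 and -0.13 for Ccr8. Ccr8, a receptor of regulatory T cells, was 5.87, 5.69, 5.87 and 6.00 against 5.39, 5.79, 5.54 and 5.63, with 1 celastrol array above 1 vehicle array (-0.27 ± 0.10, adjusted p = 0.485). The macrophage ligands Ccl3 and Ccl4 differed by -0.19 and -0.19. Xcr1 was 6.77, 6.68, 6.82 and 6.61 against 6.48, 6.36, 6.70 and 6.55 (-0.20 ± 0.08, adjusted p = 0.609), and it was 0.077 higher when all vehicle groups served as control.

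**Figure D4:**
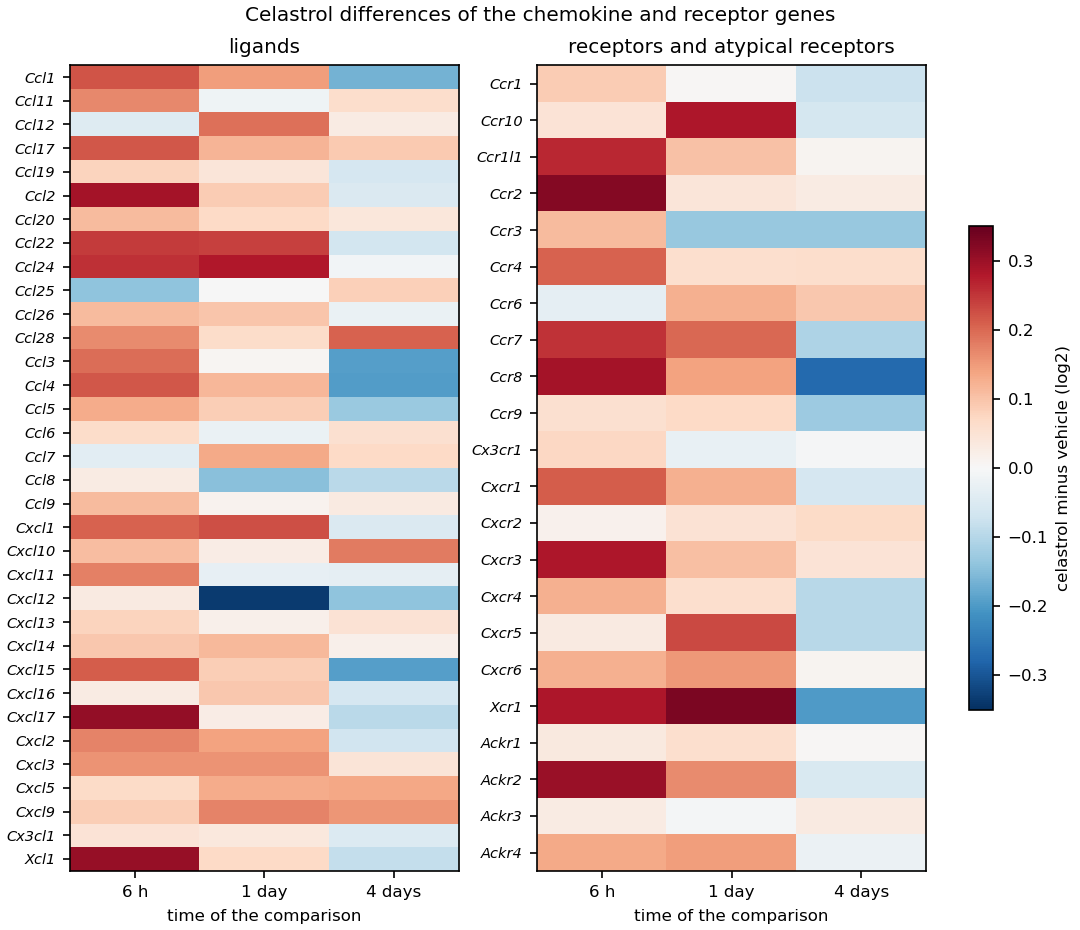
Differences between celastrol and vehicle (log2, colour) at 6 h, 1 day and 4 days for the 34 ligands (left) and the 22 receptors and atypical receptors (right). Red, for higher with celastrol, prevails at 6 h (52 of 56) and 1 day (47 of 56) and not at 4 days (24 of 56); Cxcl12 at 1 day is the deepest blue, at -0.33.

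Over the times together, 52 of 56 genes were higher with celastrol by the mean of the differences, with a median of 0.065, against 53.3% of all genes and a median of 0.0044. Of all genes in the lowest tercile 73.7% were higher (median 0.039), beside 42 of the 44 family genes there (median 0.069). By limma 0 passed (0% of all genes), and at an unadjusted p under 0.05, 15 were higher (against 8.28% of all genes) and 1, Cxcl12, was lower (against 5.25%). In the lowest tercile 11 of 44 family genes were higher at that threshold (25.0%), against 15.8% of all genes there. Cxcl12 (-0.15 ± 0.04, adjusted p = 0.196) and Ccr2 (0.13 ± 0.04, adjusted p = 0.202) led, followed by Ccl17, Ccl22, Cxcl1, Cxcr3, Xcr1 and Ackr2, which lay between 0.13 and 0.15. For an effect that differs between times, 0 of 56 genes passed (0.0588% of all genes) and 17 had an unadjusted p under 0.05 (against 13% of all genes). The share over the lowest tercile alone, where 44 of the 56 lie, was not computed for this test. Xcr1 had the smallest p (adjusted p = 0.0911), with differences of 0.28, 0.33 and -0.20 at the respective times. Cxcl15, Ccr8, Ccl1, Ccl4, Ccr10 and Ccr2 came next. Without replicate 3 of celastrol at 6 h Xcr1 passed (adjusted p = 0.041), and without replicate 3 of celastrol at 4 days Ccl22 passed (adjusted p = 0.0498). Xcr1 passed in 1 of the 32 alternatives run for it, and its adjusted p by limma ran up to 0.935.

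Further genes were followed by name, and none passed. The fractalkine pair varied within narrow limits: Cx3cl1 ran from 10.92 to 11.28 over all arrays, and Cx3cr1 from 9.47 to 9.74. Cx3cl1 differed by 0.05, 0.04 and -0.05 and Cx3cr1 by 0.07, -0.025 and -0.0048, with 95% intervals that reached at most 0.14 to either side for Cx3cl1 and 0.12 for Cx3cr1 of the estimate. Microglial markers, 13 of 14 measured, had median differences of -0.03, -0.018 and -0.036. Cx3cr1 followed their mean with r = 0.385 and rho = 0.345 over 23 arrays (permutation p = 0.125 and 0.172), and r was 0.539 without 2 arrays. For Ccr2 and peripheral leukocyte markers r was 0.261 and rho 0.185 (permutation p = 0.339 and 0.477), and r 0.249 without 2 arrays. Of those leukocyte markers 10 of 13 were measured, 9 of them in the lowest tercile, and 9 of 10 were higher at 6 h (median 0.17), as they were at 1 day. In the lowest tercile 76.8% of all genes were higher at 6 h. The mean of the leukocyte markers ran from 6.33 to 6.44 in vehicle and from 6.48 to 6.64 in celastrol arrays at 6 h. Their part in the family differences was not tested. The brain ligand Cxcl14 differed by 0.10, 0.11 and 0.02, and Ackr1, the atypical receptor of venules, by 0.03, 0.06 and 0.005. Ccl5, a T cell attractant, differed by 0.13, 0.09 and -0.13. The interferon-induced Cxcl10 differed by 0.11, 0.03 and 0.18. The last of these rested on replicate 3 of celastrol at 4 days, at 7.84 beside 6.81, 6.58 and 6.79, which also had the highest value of Cxcl9, 8.00. Without that array the Cxcl10 difference was -0.097.

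Vehicle mice alone differed between times, and here family genes passed the test. By limma 13 of 56 genes passed an adjusted p of 0.05 (23.2%, against 8.83% of all genes). They were the ligands Ccl1, Ccl4, Ccl17, Ccl19, Ccl20, Cxcl15 and Cxcl17, the receptors Ccr2, Ccr3, Ccr10, Cxcr1 and Xcr1, and Ackr2. All 13 were highest at 4 days; 10 were lowest at 1 day, and Ccr2, Ccr3 and Ccl19 at 6 h. In the lowest tercile 10 of 44 family genes passed (22.7%, against 10.7% of all genes there), and above it 3 of 12 (25%, against 7.88%). Of all genes of the lowest tercile that passed, 94.6% were highest at 4 days and 85.4% lowest at 1 day. Marker means had the same order: at 6 h, 1 day and 4 days they were 6.39, 6.30 and 6.52 for leukocytes and 8.68, 8.62 and 8.97 for mural cells and fibroblasts, and their part in the change was not tested. Each vehicle group also differs in time and, where dosing was daily, in number of injections, which cannot be told apart, and no time of array processing was analysed here.

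Ccr10 rose most clearly from 1 day to 4 days, by 0.40 ± 0.07 (adjusted p = 0.0019 by limma). Xcr1 rose by 0.48 ± 0.08 (adjusted p = 0.00242) and Ccl20, the ligand of Ccr6, by 0.39 ± 0.08 (adjusted p = 0.0047) over the same step. Ccl20 was 7.01, 6.90, 7.18 and 7.16 at 1 day and 7.46, 7.39, 7.38 and 7.56 at 4 days, without overlap. Ccr3, the receptor of eosinophils, rose from 6 h to 4 days by 0.30 ± 0.06 (adjusted p = 0.0159). The lymph node ligand Ccl19 rose by 0.30 and Ccr2 by 0.24 over that span (adjusted p = 0.0422 and 0.0426). Ccl19 has 5 probe sets, 2 of them with identical values, and near-identical gene copies, so its value is uncertain. With each array's SD over genes in the model, 0 of the 13 passed, and 2 genes did in all. After a further quantile normalisation Ccr10, Ccr3 and Xcr1 passed.

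**Figure D5:**
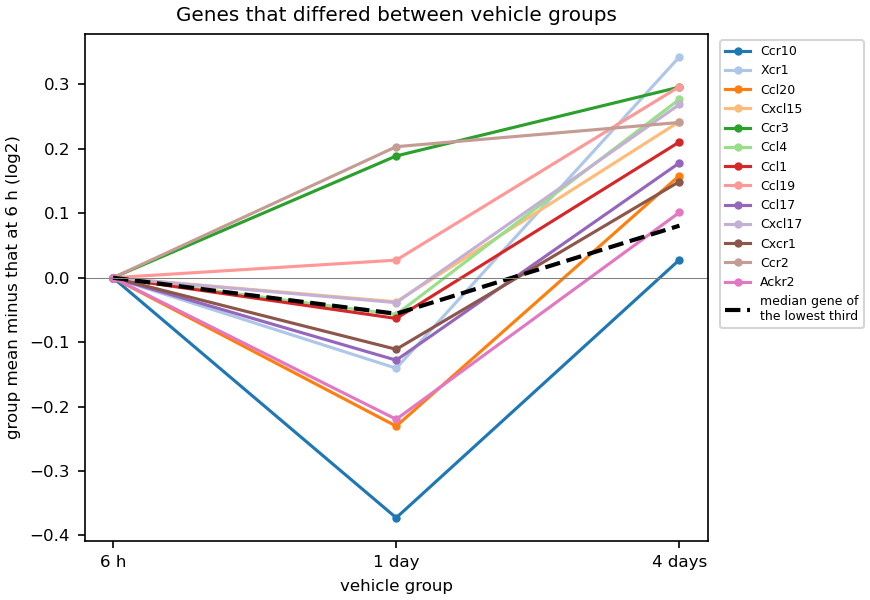
Group means in vehicle mice minus the mean at 6 h (log2, vertical axis) for the 13 genes that differed between times, 1 line a gene, with the median gene of the lowest tercile as a dashed line. All 13 are highest at 4 days, and the dashed line is also lowest at 1 day and highest at 4 days.

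Other genes of chemokine signalling were counted from a list of 51, of which 47 were measured. In the celastrol comparisons 0 of 47 passed the adjusted test. At an unadjusted p under 0.05, 4 of 47 were higher and 2 lower at 6 h (against 8.56% and 6.22% of all genes), 5 and 1 at 1 day (against 8.31% and 4.19%), and 1 and 2 at 4 days (against 2.73% and 4.57%). These counts lay near the shares over all genes. At 6 h Adam17 and Adam10, the proteases that shed Cx3cl1 and Cxcl16, differed by -0.18 and -0.14, and the cytokine Il1b by 0.33. At 1 day 7 of 8 measured inducers were higher (median 0.13), against 54.1% of all genes. Of the 8 inducers 4 lay in the lowest tercile, where 76.2% of all genes were higher. Among those higher were Nfkbia, the inhibitor of NF-kappaB, at 0.33 ± 0.09 (adjusted p = 0.184), Il1b at 0.32 and Ifng at 0.22. At 4 days Cd74 differed by -0.34, Ifng by -0.18 and Rgs2, a regulator of G protein signalling, by 0.12. In vehicle mice 4 of 47, Cdc42, Adam17, Cmklr1 and Pf4, passed the test between times, a count near the 8.83% of all genes.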

How the data were processed

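The authors deposited log2 expression for each probe set. RMA, given without version per the submitters' processing notes, corrects background and equalises arrays; which arrays it was run over was not analysed here. Depth has no meaning for arrays, whose number limits the precision. Array medians lay between 8.57 and 8.64, and the values were used unchanged. Of 23492 probe sets, 20228 named 1 gene; the highest-mean one per gene was kept, with no filter on level.

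A limma 3.58.1 model (R 4.3.3) of 6 group means was fitted to 23 arrays with 17 residual degrees of freedom, and p-values were adjusted by Benjamini and Hochberg across 18702 genes. The labels call the arrays biological replicates. Named were all genes that passed, the 8 of smallest p per comparison and a fixed set, and the 3 of smallest p on the pathway list. Members and lists were chosen with earlier results of these data known. Relations used 100000 permutations within groups. On simulated data at 6 h, changes were planted in 67 genes at 0.25, 67 at 0.5 and 66 at 1, among 18702 genes. Recovered were 34.3% of changes of 0.25 and 92.5% of changes of 0.5, with 11 false calls. In the measured comparison at 6 h 0 genes passed, so these shares need not hold for it.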

Additional observations from a re-analysis of the deposited data

Results flagged for a closer look

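In groups of 4 arrays, a value was singled out when it stood far from the other 3 relative to the range of the group; chance alone does so in about 1 of 20 groups. Of 160 groups tested 6 were singled out, which is no more than that share. In vehicle mice, Ccl1 was 6.62 in replicate 2 at 1 day, beside 6.74 to 6.75. Ccl2 was 7.31 in replicate 1 at 4 days, beside 7.11 to 7.14. Cx3cl1 was 10.92 in replicate 3 at 6 h, beside 11.16 to 11.20. With celastrol, Ccr8 was 5.84 in replicate 3 at 1 day, beside 5.67 to 5.70. Cxcl1 was 7.17 in replicate 2 at 4 days, beside 7.54 to 7.58. Cxcr5 was 5.93 in replicate 1 at 4 days, beside 6.26 to 6.33.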

How the results depend on the processing

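No family gene passed in the celastrol comparisons at 6 h or 4 days, or in their mean, under any alternative run, leaving out each array included. At 1 day array weights gave 3 (Cxcl12, Ccr10 and Xcr1), and the other alternatives 0. For an effect that differs between times, leaving out 1 array gave 0 to 1. Between vehicle times 13 genes passed. The count was 3 without the lowest tercile of genes (Ccl17, Ccl19 and Ccr10, which are the 3 of the 13 still tested there), 3 after quantile normalisation, 7 when each array was centred on its own median, 8 without the vehicle arrays with Prl above 9 (among them Cxcl13, which is not one of the 13), and 0 with the array SD as a covariate, which was chosen after seeing the data, as was the endothelial covariate. Leaving out 1 array gave 6 to 16, with under 9 without vehicle replicates 2 or 4 at 1 day or 1, 2 or 3 at 4 days. With the replicate block it was 11, and 0 for each celastrol comparison; of 11 same-numbered pairs, 2 correlated above 0.1 (range -0.0826 to 0.188), so the numbers were not taken to pair the arrays.

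Of 2475 recomputed values of named differences 80 changed sign, 25 of them with a move of more than the standard error, and in 7 of these the reported difference itself exceeded that error. Those 7 were the following. With all vehicle groups as control, the differences at 4 days were 0.0092 for Ccl4, 0.077 for Xcr1 and 0.0013 for Ccr3. With the array SD as a covariate they were -0.011 for Ccl2 and -0.077 for Ccl5 at 6 h, and -0.029 for the mean effect of Ccl2. Cxcl10 at 4 days ran from -0.097 (without replicate 3 of celastrol) to 0.32 when 1 array was left out. Among the other turns were Ccl2 at 1 day (-0.15) and Ccl5 at 1 day (-0.08), both with the array SD. With that covariate, named differences turned or shrank by more than 1.5 times in 11 of 19 cases at 6 h. At 1 day 10 of 18 did, and at 4 days 8 of 19. With all vehicle groups as control, 4, 10 and 15 did at the respective times. The covariate is computed from the same values, and the joined control also holds the differences between vehicle times. The cause was not tested. The number of arrays limits what could be seen: half-widths of the 95% intervals had a median of 0.18 at 6 h and 0.17 at the later times.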
